A study of Mus musculus with 6 samples.

Results

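Macrophage identity is set by a small group of transcription factors. PU.1, C/EBP proteins and RUNX1 act early, when a myeloid progenitor commits, and MAF, ZEB2, ID3 and the Krüppel-like factors KLF2 and KLF4 act later, when a monocyte or macrophage takes on the program of its tissue. PU.1 opens the enhancers on which the other factors bind, and the balance between C/EBPα and C/EBPβ and the level of MAF are known to differ between macrophage states. The 9 genes that encode these factors, Spi1, Cebpa, Cebpb, Runx1, Maf, Zeb2, Id3, Klf2 and Klf4, were chosen by name. Each was found once among the 23424 genes counted, and all 9 passed the filter on low counts, so 9 of the 14645 protein-coding genes tested are described here.

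The genes were measured by bulk RNA-seq of tumor-associated macrophages (TAMs) from YUMM1.7 tumors. YUMM1.7 is a mouse melanoma line, and cells of it were injected intradermally into untreated wild-type female C57Bl/6J mice of 8 weeks. On day 21, live CD45+Lin-CD11b+ cells were sorted by the surface protein F4/80 into an F4/80high and an F4/80low subset, which share strain, genotype, age, tumor line and the absence of treatment. There were 3 libraries per subset, each from 10 pooled tumors of 1 of 3 experiments, and the libraries of one replicate number form a pair. These surface proteins are not restricted to macrophages, since eosinophils carry them too, and a pool of tumors gives no spread between animals.

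The replicate 3 libraries stood apart in both subsets. They form batch 2 in the study's own drawing of its libraries, and replicates 1 and 2 form batch 1. Batch 1 held 30292061 to 43604373 counts per library and batch 2 held 16045281 and 16204810. Lars2, Gm23935 and Gm15564 together took 17.1% and 16.1% of the counts in batch 2, against 0.378% to 0.609% in batch 1. Results are therefore given by replicate pair, with subset and batch as terms of one fit. The macrophage genes Adgre1, Csf1r and Cd68 were present in every library. Adgre1, which encodes F4/80, was higher in F4/80high in 3 of 3 pairs, by 0.67 on the log2 scale (SE 0.30, edgeR adjusted p = 0.664).

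With the batch term, no factor passed the edgeR test between the subsets (quasi-likelihood, at a p below 0.05 after Benjamini-Hochberg adjustment with more than 1 log2 unit in either direction). This fit called 0 of 14645 genes, or 0%, with a lowest adjusted p of 0.434. Without F4/80high replicate 1 it called 77 genes, of which 37, or 0.253%, were higher in F4/80high, and no factor was among them. Cebpa then lay just above the threshold (log2 fold change 1.32, edgeR adjusted p = 0.05004), with Maf at 1.55 (adjusted p = 0.0751). The number of calls depended on the fit. DESeq2, the tool of the paper, called 150 of 14645 genes and 1 factor with the batch term. A term for each replicate number in place of the batch is named the replicate block here. With it edgeR called 76 genes and 1 factor, and DESeq2 called 356 genes and 2 factors. In the edgeR fit with the batch term, 3 factors had an unadjusted p under 0.05. Maf and Cebpa, 2 of 9, were higher in F4/80high, where 3.28% of all genes passed in that direction. Cebpb, 1 of 9, was higher in F4/80low, where 4.32% of all genes did. The median absolute log2 fold change was 0.40 over the 9 factors and 0.35 over all genes tested. In bulk RNA, fewer cells that express a gene and less RNA per cell cannot be told apart.

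Maf encodes the large MAF factor that restrains self-renewal and maintains the mature macrophage state. Its level in F4/80high replicates 1, 2 and 3 was 86.4, 161 and 1712 CPM, the count relative to the size of its library after TMM scaling. In F4/80low the values were 27.7, 70.9 and 679.6 CPM. Every pair was higher in F4/80high, by 3.11, 2.27 and 2.52 times, but the subsets overlapped because both replicate 3 libraries exceeded the other 4. Within batch 1 the subsets did not overlap. The fitted log2 fold change was 1.33 (SE 0.37, n = 3 per subset, edgeR unadjusted p = 0.00590, adjusted p = 0.503).

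The call on Maf turned on how the pairs were modelled, and its adjusted p also differed between the tests. DESeq2 with the same batch term gave a log2 fold change of 1.34 at an adjusted p of 0.0502, just above the threshold. With a replicate block instead of the batch term, the log2 fold change was 1.38 (SE 0.19) and edgeR called it, at an adjusted p of 0.0300. Maf was the only factor among the 34 genes, or 0.232%, that this fit called higher in F4/80high. Over 22 alternative settings its adjusted p ranged from 4.58e-08 to 1. Without both replicate 3 libraries the log2 fold change remained 1.33, and the blocked value was 1.41 with an adjusted p of 0.107.

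Cebpa encodes C/EBPα, which is required for the granulocyte and monocyte lineages and drives myeloid maturation. F4/80high replicates 1, 2 and 3 held 48.1, 78.8 and 213 CPM of Cebpa. Their F4/80low partners held 29.7, 27.3 and 98.8 CPM. All pairs were higher in F4/80high, by 1.62, 2.88 and 2.16 times, and within batch 1 the subsets did not overlap. The fitted log2 fold change was 1.14 (SE 0.25, edgeR unadjusted p = 0.00123, adjusted p = 0.440), and with the replicate block it was 1.11 (adjusted p = 0.0891). DESeq2 with the batch term called it at an adjusted p of 0.00991, 1 of 9 factors among the 0.314% of genes that it called higher in F4/80high. DESeq2 with the replicate block called Maf and Cebpa, 2 of 9 factors, and 0.901% of all genes in that direction.

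Cebpb encodes C/EBPβ, a relative that is induced by inflammatory signals and binds the same sites. Its level was 841, 569 and 427 CPM in F4/80high and 1474, 1133 and 717 CPM in F4/80low. Each pair was higher in F4/80low, by 1.75, 1.99 and 1.68 times, which was the narrowest spread between pairs of the 3 factors with a p under 0.05. The fitted log2 fold change was -0.84 (SE 0.24, edgeR unadjusted p = 0.00707, adjusted p = 0.504). With the block it was -0.85 (adjusted p = 0.0825), and DESeq2 with the block gave an adjusted p of 0.00208, but the fold stayed below the minimum for a call.

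**Figure D1:**
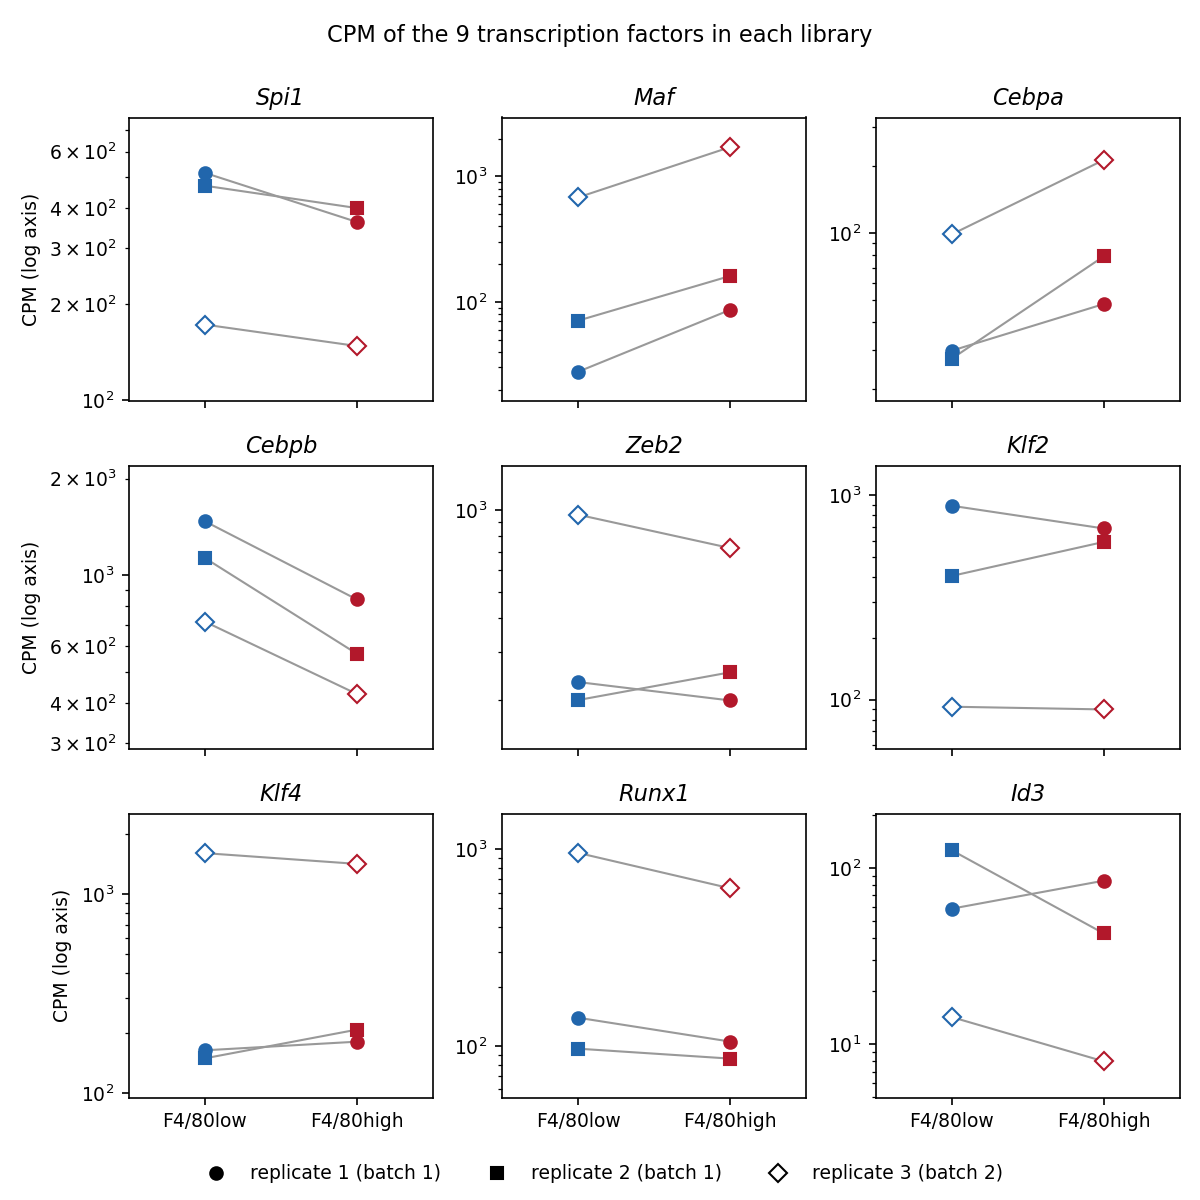
Level of each factor in the 6 libraries, in CPM on a log axis, F4/80low in blue and F4/80high in red, with a grey line joining the libraries of one replicate number. The lines of Maf and Cebpa go up in all 3 pairs and those of Cebpb go down in all 3, while the open symbols of replicate 3 lie apart from the others for most factors.

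The Cebpa and Cebpb genes therefore differed in opposite directions, and their promoters are shown for comparison. Each is the 250 bases before the RefSeq start on GRCm38.p6, plus strand, written 5′ to 3′, with capitals for the matches to the motifs below. Cebpa lies on chromosome 7 (window chr7:35119043-35119292) and Cebpb on chromosome 2 (window chr2:167688665-167688914).
Cebpa: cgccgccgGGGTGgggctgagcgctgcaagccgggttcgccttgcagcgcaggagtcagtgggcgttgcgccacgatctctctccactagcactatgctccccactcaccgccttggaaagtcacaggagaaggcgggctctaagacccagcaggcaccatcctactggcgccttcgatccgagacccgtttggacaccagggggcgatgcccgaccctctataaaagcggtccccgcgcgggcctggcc
Cebpb: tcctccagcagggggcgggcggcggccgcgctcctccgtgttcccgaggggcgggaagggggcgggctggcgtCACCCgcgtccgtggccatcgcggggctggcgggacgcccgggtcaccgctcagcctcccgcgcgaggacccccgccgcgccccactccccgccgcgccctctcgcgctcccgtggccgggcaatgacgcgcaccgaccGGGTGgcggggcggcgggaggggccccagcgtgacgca

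Both windows are rich in G and C, at 66.4% for Cebpa and 81.6% for Cebpb. Short motifs of the factor families were searched on both strands. These were GAGGAA for PU.1, TTGCNNAA for C/EBP, TGTGGT for RUNX, TGCTGA as a MAF half-site, CACCC for KLF and CACCTG for ZEB. The KLF motif matched once in Cebpa, at -242 from the start, and 2 times in Cebpb, at -177 and -38. The other motifs did not match in either window. The KLF letters occur in 52.0% of 32841 mouse promoters of this length, PU.1 in 23.3%, C/EBP in 9.57%, RUNX in 14.0%, the MAF half-site in 16.1% and ZEB in 17.2%. Windows were held for 7 of the 9 factors, and Maf and Spi1 were not among them.

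The ratio of Cebpb to Cebpa within a library does not depend on how libraries are scaled. Per length, Cebpb exceeded Cebpa by 30.6, 12.7 and 3.50 times in F4/80high and by 86.8, 72.5 and 12.7 times in F4/80low. The ratio was lower in F4/80high in 3 of 3 pairs, and the subsets overlapped because replicate 3 was low in both. The log2 ratio differed by -1.96 (3.47 ± 1.57 against 5.43 ± 1.53, SD, n = 3 each, two-sided exact permutation p = 0.2, adjusted p = 1 over 5 ratios, smallest possible p 0.1). This test does not use the pairs, within which the log2 ratio differed by -1.51, -2.52 and -1.86, and the SDs include the difference between the batches.

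Spi1 encodes PU.1, the factor that commits progenitors to the myeloid line and controls the receptor for M-CSF. F4/80high libraries held 362, 399.7 and 148 CPM, and F4/80low libraries held 515, 469.7 and 172.5 CPM. The F4/80low library was higher in 3 of 3 pairs, by 1.43, 1.18 and 1.17 times. The fit gave -0.32 on the log2 scale, with an SE of 0.21 (edgeR adjusted p = 0.725). Per length it exceeded 93.0% to 98.6% of the genes tested in each library, so PU.1 mRNA was abundant in both subsets.

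Runx1 encodes a partner of PU.1 in early blood development. Values of 105, 86.1 and 631 CPM were counted in F4/80high and of 139, 96.7 and 954 CPM in F4/80low. Again the F4/80low library was higher in 3 of 3 pairs, with a log2 fold change of -0.40 (SE 0.24, edgeR adjusted p = 0.709). In all, 5 factors thus kept one direction in all 3 pairs. Maf and Cebpa, 2 of 9, were higher in F4/80high in each, against 16.0% of all genes. Spi1, Cebpb and Runx1, 3 of 9, were higher in F4/80low in each, against 18.2% of all genes.

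**Figure D2:**
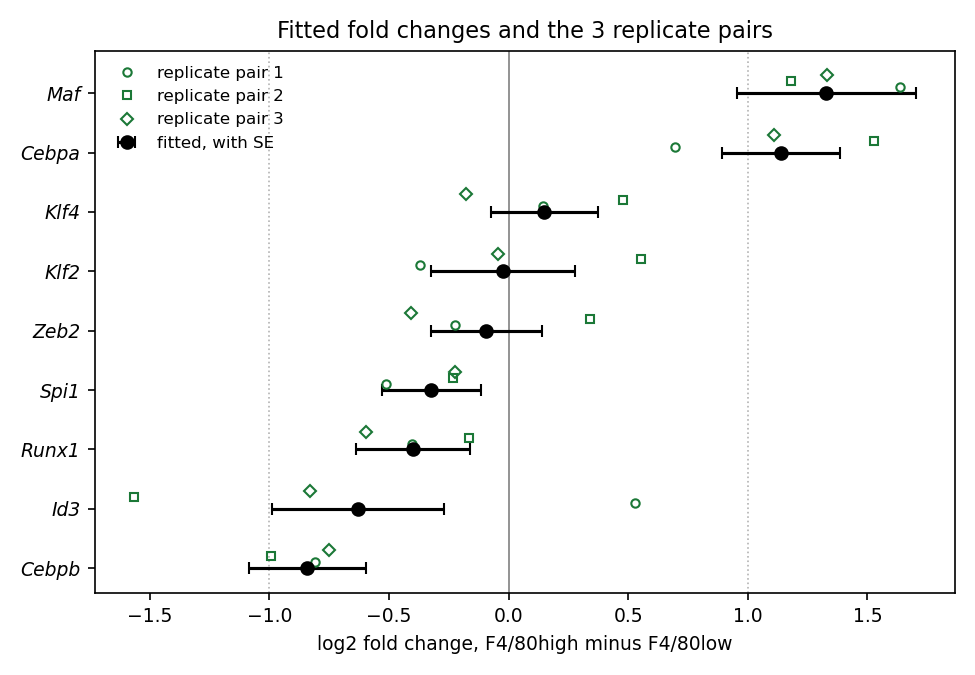
Fitted log2 fold change of each factor, F4/80high minus F4/80low, with its standard error (black), and the difference within each of the 3 replicate pairs (green), with dotted lines at -1 and 1. Maf (1.33) and Cebpa (1.14) lie to the right of 1 and no factor lies to the left of -1, while the pairs of Id3 spread from -1.57 to 0.53.

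The other 4 factors differed in direction between pairs. Zeb2, a repressor needed for macrophages to keep their tissue identity, was at 199, 253 and 725 CPM in F4/80high and 233, 200.1 and 961 CPM in F4/80low (log2 fold change -0.09, SE 0.23, edgeR adjusted p = 0.946). It was higher in F4/80high in pair 2 and lower in pairs 1 and 3. Klf2, which restrains inflammatory activation, was at 688, 591 and 89.6 CPM in F4/80high and 888, 403 and 92.4 CPM in F4/80low (log2 fold change -0.02, SE 0.30, adjusted p = 0.994). The sign of so small a difference turned with the setting, from -0.29 to 0.36 when 1 library was left out.

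Klf4, a factor of monocyte differentiation and alternative activation, was at 181, 208 and 1421 CPM in F4/80high and 164, 149 and 1609 CPM in F4/80low. The subsets did not overlap within batch 1, where F4/80high was the higher, but pair 3 had the other direction (log2 fold change 0.15, SE 0.22, edgeR adjusted p = 0.904). Without a batch term the value was -0.09. Id3, an inhibitor of E proteins that is known for its part in Kupffer cells, was at 84.6, 42.5 and 8.00 CPM in F4/80high and 58.7, 126 and 14.3 CPM in F4/80low. Pair 1 was higher in F4/80high and pairs 2 and 3 in F4/80low, for a log2 fold change of -0.63 (SE 0.36, adjusted p = 0.699). With 1 library left out the value ran from -1.007, without F4/80high replicate 1, to -0.27, without F4/80low replicate 2. Id3 also had the lowest count, 74 in F4/80high replicate 3, whose exact Poisson 95% interval is 6.28 to 10.04 CPM and covers counting error only.

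Batch gave larger differences than subset for 8 of the 9 factors, all but Cebpb. All 9 passed the batch term at an adjusted p under 0.05, as did 42.6% of all genes tested. Maf, Klf4, Runx1, Zeb2 and Cebpa, 5 of 9, were higher in batch 2, where 20.0% of all genes were. Spi1, Cebpb, Klf2 and Id3, 4 of 9, were higher in batch 1, where 22.7% of all genes were. The median absolute log2 fold change between batches was 2.82 over the factors and 1.22 over all genes.

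Among the factors higher in batch 2, Maf differed the most, by 3.79 on the log2 scale (SE 0.38, edgeR adjusted p = 8.02e-05), or 13.8 times. Klf4 differed by 3.12 (SE 0.23), Runx1 by 2.87 (SE 0.24), Zeb2 by 1.92 (SE 0.24) and Cebpa by 1.77 (SE 0.25). In the other direction, Id3 stood at -2.84 (SE 0.44), Klf2 at -2.82 (SE 0.37), Spi1 at -1.44 (SE 0.24) and Cebpb at -0.79 (SE 0.27). Both libraries of batch 2 come from 1 experiment, so the batch and the experiment cannot be told apart.

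Transcript lengths of the factors higher in either batch overlapped only in that Cebpa was shorter than Spi1. Klf4, Maf, Runx1 and Zeb2 were longer than every factor higher in batch 1. Those higher in batch 2 were 2634 bases for Cebpa, 3049 for Klf4, 8241 for Maf, 11827 for Runx1 and 19908 for Zeb2. Those higher in batch 1 ran from 1504 bases for Cebpb to 2695 for Spi1. Across all genes tested, the batch difference and the length had a Spearman correlation of 0.379, and the subset difference and the length one of -0.07. These are descriptions across genes of the same 6 libraries, and the part of length in the batch difference was not tested.

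**Figure D3:**
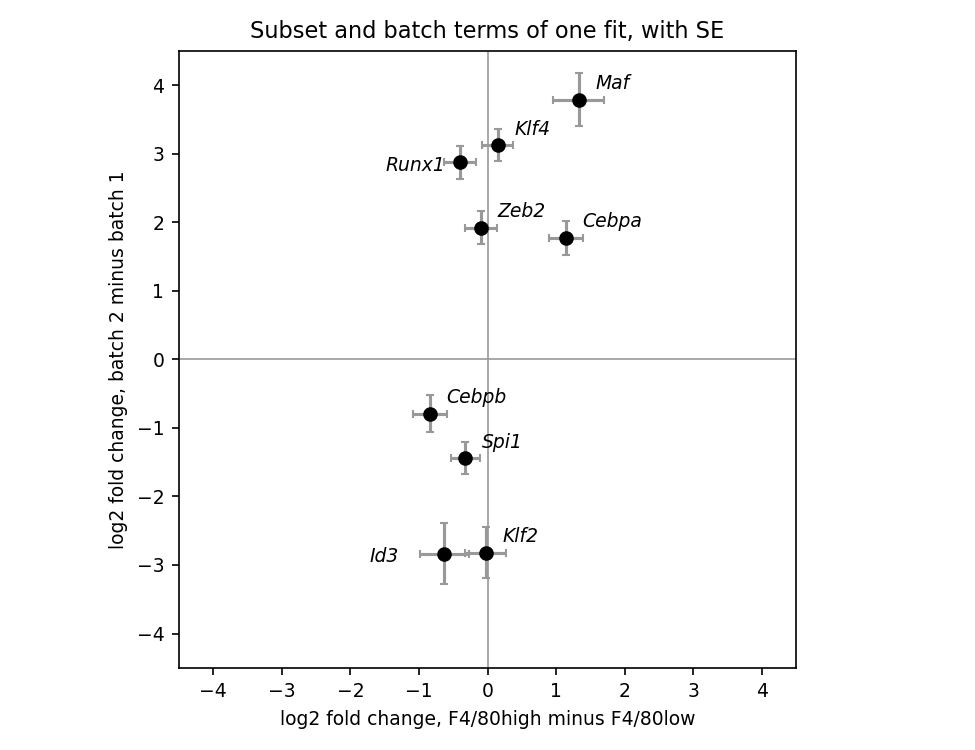
Subset term (horizontal, F4/80high minus F4/80low) and batch term (vertical, batch 2 minus batch 1) of each factor in log2 units from one edgeR fit, with standard errors. The batch term runs from -2.84 for Id3 to 3.79 for Maf, while the subset term stays between -0.84 for Cebpb and 1.33 for Maf.

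The order of the factors by CPM per kb of transcript, the scale for levels between genes, differed between the batches. In batch 1 Cebpb led in both subsets, at a mean of 469 CPM per kb in F4/80high and 867 in F4/80low. Klf2 followed at 346 and 349.5, and Spi1 came next at 141 and 183. The ranges of these leading 3 did not overlap with each other within a subset. Below them, Id3, Cebpa, Maf and Zeb2 overlapped with their neighbours in F4/80high. In F4/80low the Zeb2, Cebpa, Runx1 and Maf ranges overlapped in the same way, between 3.37 and 11.7 CPM per kb.

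In batch 2 Klf4 led instead, at 466 CPM per kb in F4/80high and 528 in F4/80low, followed by Cebpb at 284 and 477 and by Maf at 208 and 82.5. There is 1 library per subset in batch 2, so this order has no replicate check. Klf4 took 37.7% and 38.4% of the summed CPM per kb of the 9 factors in batch 2 and 3.02% to 6.77% in batch 1. Klf2 took 3.93% and 3.64% in batch 2 and 16.7% to 31.7% in batch 1. Cebpb took 37.6% to 57.8% in batch 1, and its share was lower in F4/80high than in F4/80low in 3 of 3 pairs. Over all 3 libraries of a subset, the range of every factor overlapped with that of the next in order.

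**Figure D4:**
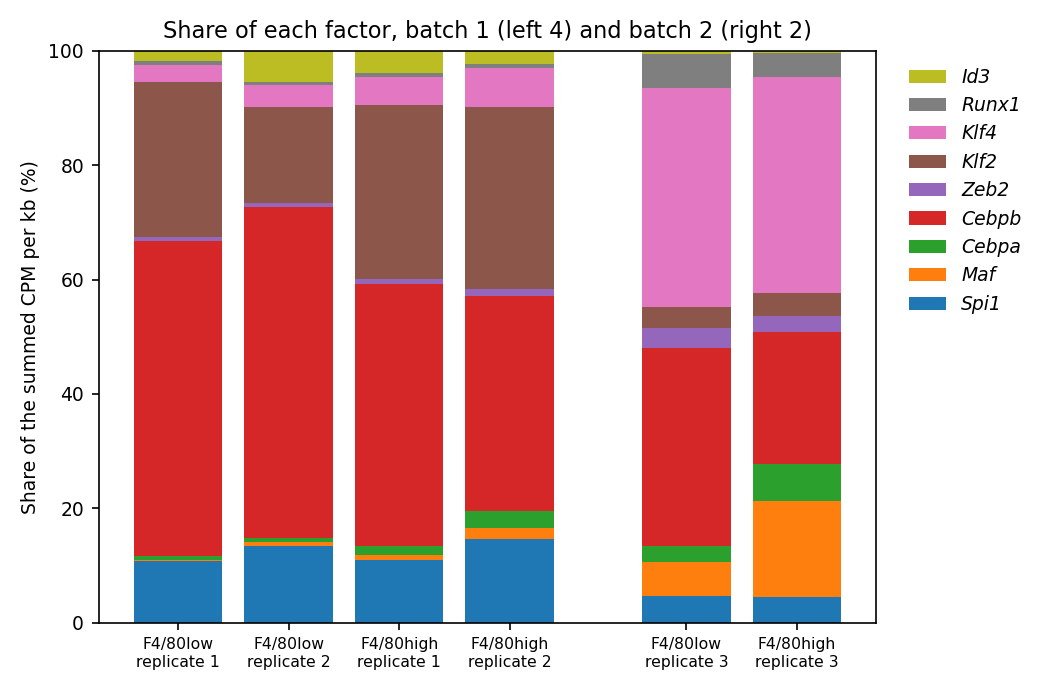
Share of each factor in the summed CPM per kb of the 9 factors, in percent, for the 4 libraries of batch 1 (left) and the 2 of batch 2 (right). Cebpb fills 37.6% to 57.8% of the bars of batch 1 with Klf2 second, and Klf4 fills 37.7% and 38.4% of the bars of batch 2.

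Ratios to a family partner were computed for Klf4, Id3, Zeb2 and Runx1 in the same way as for the C/EBP genes, and no direction held in all pairs. Klf4 stood at 0.112 to 0.224 of the Klf2 level per length in batch 1 and at 9.58 and 10.5 times it in batch 2. Its log2 ratio differed between subsets by 0.10 (exact permutation p = 1). The log2 ratio of Id3 to Id2 differed by -0.93 (p = 0.6, exact), that of Zeb2 to Zeb1 by 0.09 (p = 0.9, exact) and that of Runx1 to Runx3 by -0.29 (p = 0.7, exact). All 5 adjusted p-values were 1, and 3 libraries against 3 cannot reach an exact p below 0.1.

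Of the members' family relatives, 46 of 47 listed genes were tested. In F4/80high 14 were higher and 32 lower, with a median log2 fold change of -0.14 against 0.01 over all genes, and none was called. Over all genes, 3.28% were higher and 4.32% lower in F4/80high at an unadjusted p under 0.05. Among the relatives this held for 1 higher gene, the ETS factor Etv5 (1.006, SE 0.38), and for 4 lower genes. Those were Klf3 (-0.87, SE 0.24), Klf7 (-0.62, SE 0.22), the granulocyte factor Cebpe (-1.35, SE 0.39) and Id4 (-3.89, SE 1.55). Id4 had 5, 0 and 0 counts in F4/80high libraries and 20, 7 and 95 in those of F4/80low, with most of its counts in 1 library. Of the 13 KLF relatives 11 were lower in F4/80high, with a median of -0.44.

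Genes that are known targets of the factors were listed by factor. The lists were chosen with earlier results of these data known, so counts over a list describe it and test nothing. Of 6 targets of MAF, 5 had an unadjusted p under 0.05 and were higher in F4/80high, against 3.28% of all genes tested. The median log2 fold change of the list was 1.73, against 0.01 over all genes. They were the complement genes C1qa (1.93, SE 0.58), C1qb (1.71, SE 0.55) and C1qc (2.07, SE 0.64), with Il10 (0.86, SE 0.30) and Lyve1 (1.74, SE 0.74), which are named here after their values were seen. Most Lyve1 counts came from 1 library, F4/80high replicate 2, which held 1267, while each other library held 2 to 179. Its pair 1 ran the other way, with 4.39 CPM in F4/80low against 2.83 CPM. With the replicate block its log2 fold change fell to 1.22 (edgeR adjusted p = 0.65). C1qa was at 971, 2467 and 543 CPM in F4/80high and 199, 976 and 83.2 CPM in F4/80low. As with Maf, each pair was higher in F4/80high, but unlike Maf, C1qa was lowest in replicate 3.

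The C1q genes were not called with the batch term (edgeR adjusted p 0.504 for C1qa, 0.524 for C1qb and 0.518 for C1qc). With the replicate block all 3 were called, at edgeR adjusted p-values of 0.0272, 0.0283 and 0.0300. DESeq2 with the batch term called none of them, at adjusted p-values of 0.330, 0.0617 and 0.330. The 3 genes lie side by side on chromosome 4. Of 10 macrophage markers 6 were higher in F4/80high and 4 lower. At an unadjusted p under 0.05, 2 were higher, against 3.28% of all genes, and 0 lower. The list summed to 6444 to 21722 CPM in F4/80high and to 8164 to 10384 CPM in F4/80low. That sum was higher in F4/80high in pair 2 alone. Much of it was 1 gene, Lyz2, at 4674, 16127 and 2044 CPM in F4/80high and 5925, 6489 and 3237 CPM in F4/80low. The part of macrophage content in the C1q difference was not tested.

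Of 6 targets of the C/EBP proteins 5 were lower in F4/80high, with a median of -0.60. Lcn2, a granule protein of neutrophils, had the smallest p. It was at 104, 48.7 and 28.3 CPM in F4/80high and 267, 146 and 60.2 CPM in F4/80low, lower in F4/80high in every pair (log2 fold change -1.32, SE 0.34, edgeR adjusted p = 0.461). With the block it was called at an adjusted p of 0.0348, and by DESeq2 with batch at 0.0304. Arg1, a C/EBPβ target of alternatively activated macrophages, had the other sign, at 0.87 (SE 0.85, adjusted p = 0.821).

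Markers of granulocytes were lower in the same libraries as Cebpb, Cebpe and Lcn2. All 10 neutrophil genes were lower in F4/80high, 8 of them at an unadjusted p under 0.05, and their sum ran from 753 to 2147 CPM in F4/80high and from 1535 to 4908 CPM in F4/80low. The 9 eosinophil genes were also all lower there, 6 at an unadjusted p under 0.05, with sums of 175 to 523 CPM against 387 to 1503 CPM. Of the 5 monocyte genes 4 were lower, 3 at an unadjusted p under 0.05, with sums of 1503 to 3816 CPM against 1747 to 7046 CPM and the F4/80high sum higher in pair 2. Of all genes tested, 4.32% were lower in F4/80high at an unadjusted p under 0.05. No gene of these lists was at 0 in all libraries. Their part in the Cebpb difference was not tested.

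Of 12 PU.1 targets 7 were higher and 5 lower in F4/80high, with a median log2 fold change of 0.16. Btk, a kinase of the B cell and myeloid lines, had an unadjusted p under 0.05 (-0.81, SE 0.21, edgeR adjusted p = 0.461), and none was called. Of 3 KLF2 targets S1pr1, which KLF2 activates in T cells, was higher (1.04, SE 0.36), and Itgb7 (-1.13, SE 0.36) and Thbd (-0.53, SE 0.31) were lower, with adjusted p-values of 0.524 to 0.699. The T and NK cell markers were all higher in F4/80high, 10 of 10 by the fit. Their sum was 1480, 451 and 212 CPM in F4/80high replicates 1, 2 and 3 against 528, 669.9 and 92.5 CPM, so pair 2 ran the other way, and their part in S1pr1 was not tested.

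**Figure D5:**
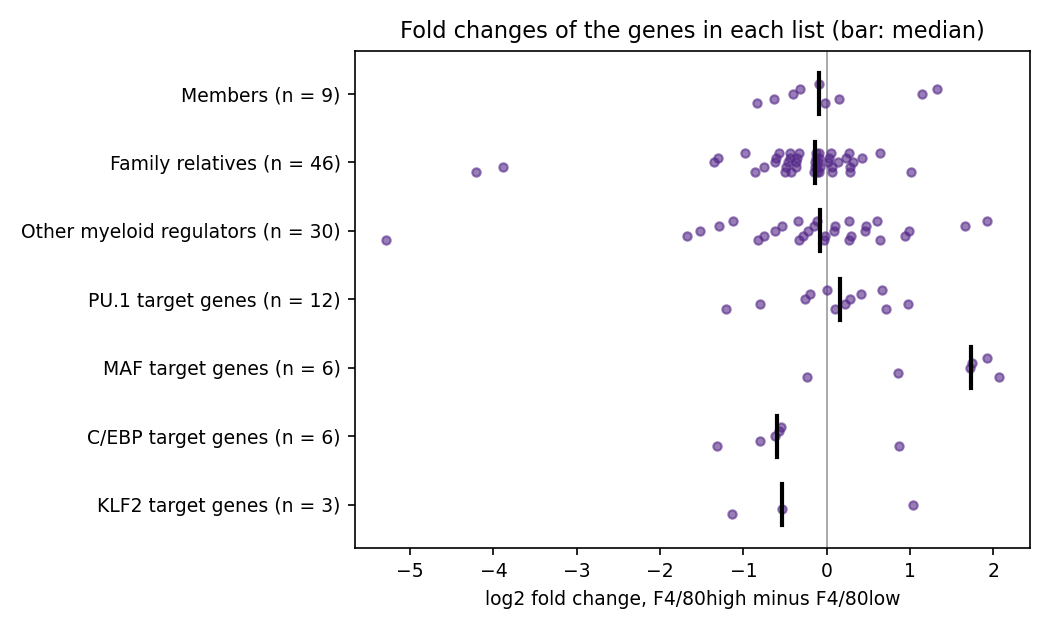
Log2 fold changes, F4/80high minus F4/80low, of the genes tested in each list, 1 point per gene, with the median as a black bar. The bar of the MAF targets lies at 1.73 and those of the C/EBP and KLF2 targets at -0.60 and -0.53, while the bar of the factors lies at -0.09, that of all their relatives at -0.14 and that of the other regulators at -0.08.

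The pattern of each factor over the 6 libraries was compared with 10071 other genes, as the root mean square difference of centred log2 CPM. Runx1 had the closest neighbour, Vcpip1 at 0.02, and Ifih1 followed at 0.10. Zeb2 was nearest to Tmem181a at 0.07 and Chd8 at 0.10, Spi1 to Zdhhc7 at 0.09 and Slc25a45 at 0.09, and Klf4 to Ywhae at 0.09 and Pds5a at 0.11. Cebpb was nearest to Gucd1 at 0.12 and Rps6ka2 at 0.13, and Klf2 to Gadd45g at 0.15 and Tmem198b at 0.17. In absolute difference Maf had no neighbour so near, with Nav2 at 0.39 and Gpr85 at 0.42. Nor had Cebpa, with Rufy2 at 0.23 and Rnf168 at 0.24, or Id3, with Lypla2 at 0.28 and Alkbh4 at 0.32. These differences were not scaled by the own spread of each factor, which was 2.02 for Maf, 1.03 for Cebpa and 0.59 for Cebpb. They therefore do not show that the pattern of Maf was more isolated than that of Cebpb. Among the factors themselves the smallest differences were 0.34 for Klf4 and Runx1 and 0.46 for Spi1 and Cebpb. The own spread of Klf4 and Runx1 was 1.48 and 1.39. That of Spi1 and Cebpb was 0.70 and 0.59, so their difference was large beside what each varied. These patterns hold the difference between the batches as well as that between the subsets.

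Overlapping genes could share reads with 5 of the factors, since the sources do not state whether strand was used in counting. Cebpb (chr2:167688915-167690418) overlaps in part with Tmem189 (chr2:167642608-167689822) on the other strand, which was at 121 to 249 CPM with a log2 fold change of -0.01 (SE 0.26) in a fit of genes of all biotypes. Zeb2 overlaps Zeb2os, at 1.53 to 8.32 CPM, and Mir5129, with at most 2 counts per library. Runx1 overlaps Gm26626, with 4 to 33 counts. The antisense genes annotated at Maf (chr8:115682942-115707794), Gm15655, and at Cebpa (chr7:35119293-35121928), Gm45091, were not among the genes counted. Coordinates are those of GENCODE M21 on GRCm38.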

How the data were processed

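The authors deposited a raw read count for each of 23424 genes in each of 6 poly-A libraries, with no normalization. The paper names only the sequencing center's standard alignment pipeline, and the aligner, counting rule and strand are not given in the sources used here. Of these genes, 15813 were protein-coding in GENCODE M21, and the 14645 with at least 10 counts in total were fitted with edgeR 4.0.16 in R 4.3.3 (quasi-likelihood test, TMM, terms for batch and subset). DESeq2 1.42.0, a tool that the paper used, was an alternative. Depth was 16045281 to 43604373 counts per library. CPM was divided by the deposited gene length in kb to compare genes. Ratios were the log2 of count plus 2 per length. The edgeR and DESeq2 fits were tested on simulated counts that held a batch difference but no difference between the pairs of batch 1. The choice between batch term and replicate block was thus not tested.

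The replicate numbers were taken as pairs because the libraries come from 3 independent experiments. Within pairs 1, 2 and 3, deviations from each subset's mean had correlations of 0.745, 0.729 and 0.907 (10072 genes). The difference between the batches enters these values, since replicate 3 stood apart in both subsets. They therefore cannot tell the pairing of replicates 1 and 2 from the batch. Between whole libraries, the Spearman correlation was 0.958 within pair 1 and 0.941 within pair 2. With the partners of replicates 1 and 2 exchanged it was 0.955 and 0.935. Whether these replicates form pairs was not tested. Promoters came from RefSeq (GRCm38.p6). The authors' batches were read from their drawing of the libraries. The members, gene lists and tests were chosen with earlier results of these data known. The named genes are the members, up to 3 listed genes with the smallest p per list and direction, Adgre1, the partners in the ratios, the 2 nearest patterns and overlapping genes. Some planned items are not reported here.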

Additional observations from a re-analysis of the deposited data

How the results depend on the processing

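The count of factors called was 0 with edgeR and the batch term. It was 1 with the replicate block, 1 with DESeq2 and batch, and 2 with DESeq2 and the block. Among alternatives chosen after the data were seen, it was 1 for the block with genes of all biotypes, with RLE size factors or with library size alone. Over all genes the count was 150 with DESeq2 and batch, 76 with the replicate block, 356 with DESeq2 and the block, and 27, 73 and 86 for those 3 added block fits. The block without both replicate 3 libraries called 23 genes. Leaving out 1 library gave 0 to 77 genes, the 77 without F4/80high replicate 1, where 37 (0.253%) were higher in F4/80high. None of the 9 factors was called in any of these 6 fits, though Cebpa without F4/80high replicate 1 had an edgeR adjusted p of 0.05004. With no batch term 0 factors had an unadjusted p under 0.05, and leaving out 1 library gave 3 to 4.

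Maf and Cebpa were higher in F4/80high, and Spi1, Cebpb, Runx1 and Id3 lower, under every alternative run. Among the factors, the replicate block in edgeR changed the call of Maf only. Without both replicate 3 libraries Zeb2 turned to 0.064, and to 0.059 with the block, and it ranged from -0.27 to 0.063 with 1 library left out. Klf2 turned to 0.033 with library size alone, 0.046 with the replicate block and 0.0486 with DESeq2 and the block. In the added block fits it was 0.0687 with all biotypes, 0.0934 without replicate 3, 0.0486 with RLE and 0.0918 with library size alone. It ranged from -0.29 to 0.36 with 1 library left out. Klf4 turned to -0.0869 with no batch term. The cause was not tested.

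With 1 library left out, the log2 ratios ranged from -1.80 to 2.12 for Klf4 over Klf2, -2.15 to 0.39 for Id3 over Id2, -0.35 to 0.75 for Zeb2 over Zeb1 and -0.52 to 0.0244 for Runx1 over Runx3, and that of Cebpb over Cebpa stayed from -2.84 to -1.13. A fit without 1 replicate 3 library leaves 1 library in batch 2, which then carries no information on the subsets. Whether replicates within a subset differ more by animal or by handling cannot be told from pooled tumors. Depth limits Id3 most.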

Other observations

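Of 30 other regulators of myeloid cells, 13 were higher and 17 lower in F4/80high, with a median log2 fold change of -0.08, and none was called by edgeR with the batch term. DESeq2 with batch called 1 of them, Gata1 (adjusted p = 0.0329), and 150 of 14645 genes in either direction. Bhlhe41, a transcriptional repressor present in alveolar macrophages, was at 4.16, 21.2 and 342 CPM in F4/80high and 1.86, 7.77 and 44.2 CPM in F4/80low. It was higher in F4/80high in 3 of 3 pairs (log2 fold change 1.92, SE 0.68, adjusted p = 0.562). Its highest library was the one in which Maf was highest. Both genes were higher in batch 2, by 4.05 for Bhlhe41 and 3.79 for Maf on the log2 scale, as were 20.0% of all genes. Mitf, which drives lysosomal genes, was also higher in each pair (0.64, SE 0.23, adjusted p = 0.554). Of the list, 5 had an unadjusted p under 0.05 and were lower in F4/80high, against 4.32% of all genes tested. Gata1 (-1.67, SE 0.42) and Gata2 (-1.12, SE 0.42) are factors of eosinophils, mast cells and basophils, and Cbfa2t3 (-1.30, SE 0.40), Tfeb (-0.83, SE 0.27) and Nfil3 (-0.75, SE 0.26) completed them. Gata2 and Nfil3 were named after their values were seen. Gata1 was at 10.4, 4.86 and 1.73 CPM in F4/80high and 15.5, 30.6 and 6.27 CPM in F4/80low. Eosinophil markers were lower in F4/80high in 9 of 9 genes. Mast cell and basophil markers were lower in 8 of 8, with 0 at an unadjusted p under 0.05. The part of these cells in the Gata1 difference was not tested.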
